A study of Mus musculus with 15 samples.

Results

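Translation of 9 mouse genes of homologous recombination and Fanconi crosslink repair (Brca1, Brca2, Palb2, Fancd2, Fanci, Fanca, Fancm, Rad50 and Mre11a) was examined by ribosome profiling in E14Tg2a.4 mouse embryonic stem cells (mESCs). The genes were chosen by name, with earlier results of these data known. Each was represented by 1 transcript, so the set holds 9 of the 21727 transcripts in the count table. All 9 were among the 10085 transcripts with enough footprints to be tested. The study compared ribosomes that carry either of 2 paralogous small-subunit proteins, Rps27 and Rps27l, which the labels call eS27 and eS27L. In Rps27-FLAG mESCs a 3xFLAG tag was inserted homozygously before the stop codon of the endogenous Rps27 gene, in Rps27l-FLAG mESCs the same tag was placed at the endogenous Rps27l gene, and WT mESCs carried no tag. Each line was represented by 3 clones, each expanded from 1 independently selected colony, and every culture was kept in serum with leukemia inhibitory factor and received cycloheximide shortly before lysis. Ribosome-protected fragments (RPFs, the stretches of mRNA shielded by a ribosome from nuclease) were sequenced from the ribosomes pelleted through a sucrose cushion in all 9 clones (total RPFs), and from ribosomes pulled down with anti-FLAG beads in the 6 clones with a tag (IP RPFs), for 15 libraries altogether. No IP library from untagged cells was analysed here, so the background of the immunoprecipitation was not measured.

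Homologous recombination repairs a DNA double-strand break by copying an intact sister sequence. The Mre11a-Rad50-Nbn complex binds the broken ends and starts their resection, Brca1 promotes resection and recruits Palb2, and Palb2 brings in Brca2, which acts on the resected single-stranded DNA. The Fanconi pathway handles interstrand crosslinks: Fancm recognises the stalled fork and anchors a core complex that includes Fanca, and this complex monoubiquitinates the paired proteins Fancd2 and Fanci. Both pathways act in S phase and G2, and mESCs spend most of their cycle in S phase.

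Rad50, Fancm and Brca2 are the members whose IP RPFs lay furthest below their total RPFs, and short stretches of their coding sequence (CDS) are shown so that the reading frames over which footprints were counted can be seen. They were read from the GENCODE M21 transcripts (GRCm38) in the 5′ to 3′ direction of the mRNA, and each lies inside the counted part of the CDS. The capitals mark, in turn, the codons of the ATP-binding Walker A loop of Rad50, the zinc hook that joins a pair of Rad50 molecules, the DEAH box of the Fancm helicase domain, and a BRC repeat motif of Brca2.
Rad50 Walker A loop, chr11:53706045-53706974 (minus strand, exons 1 to 2, codons 36 to 43 in capitals): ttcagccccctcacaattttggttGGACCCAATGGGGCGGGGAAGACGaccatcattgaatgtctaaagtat
Rad50 zinc hook, chr11:53683333-53683392 (minus strand, exon 13, codons 681 to 684 in capitals): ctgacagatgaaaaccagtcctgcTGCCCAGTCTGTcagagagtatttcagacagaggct
Fancm DEAH box, chr12:65077149-65077208 (plus strand, exon 2, codons 202 to 205 in capitals): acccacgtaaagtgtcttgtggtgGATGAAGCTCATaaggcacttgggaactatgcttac
Brca2 BRC repeat motif, chr5:150541240-150541308 (plus strand, exon 11, codons 1498 to 1504 in capitals): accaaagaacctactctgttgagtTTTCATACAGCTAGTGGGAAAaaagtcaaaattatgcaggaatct
The first stretch crosses an intron, so its genomic interval is longer than the 72 nt shown.

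The members share long reading frames. Brca2 had the longest CDS, at 9990 nt (chr5:150522630-150569746, plus strand), and Mre11a the shortest, at 2121 nt (chr9:14784654-14834646, plus strand). Between them lay Fancm at 6066 nt (chr12:65075606-65132058, plus strand), Brca1 at 5439 nt (chr11:101488764-101551879, minus strand), Fancd2 at 4353 nt (chr6:113531682-113597017, plus strand) and Fanca at 4320 nt (chr8:123268300-123318576, minus strand). Fanci followed at 3993 nt (chr7:79392312-79450264, plus strand), Rad50 at 3939 nt (chr11:53649519-53707319, minus strand) and Palb2 at 3315 nt (chr7:122107262-122132946, minus strand). The median was 4320 nt for the members against 1441.5 nt for all tested transcripts. Their coding GC content was lower, with a median of 47.5% against 52.7%, and Fanca was the member with the highest value, at 54.9%. None of the windows of 28 nt in the 9 coding sequences occurred in another transcript of the table. Only exact matches were looked for, and repeats within a transcript were not examined.

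Libraries held between 3972152 and 8064166 counts, and the 9 members had between 99 and 3492 counts each per library. All 12 mESC markers examined were detected in every library (summed level 4804 to 5900 CPM, counts scaled to a common library size), while the sums of 5 fibroblast, 4 primitive endoderm and 4 mesoderm and neural markers did not exceed 33.2 CPM, and Postn was at 0 in 14 libraries. One feature set libraries apart in a way that the cell lines did not: Tet1, a DNA demethylase of mESCs, was at 1.95 to 9.67 CPM in the 7 libraries of 4 clones and at 308 to 431 CPM in the 8 libraries of the other 5. The clones low in Tet1 were replicate 1 of each line and replicate 2 of Rps27l-FLAG. In the total RPFs, 23.1% of tested transcripts did not overlap between these sets of 4 and 5 clones.

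In WT total RPFs the members spanned a 7.02-fold range of footprint density, given here as normalized CPM per kb of counted CDS (± SD, n = 3 clones). Mre11a, the nuclease of the resection complex, was the highest at 69.3 ± 3.33. Fancd2 followed at 54.5 ± 4.35, Brca1 at 53.6 ± 10.6, Rad50 at 48.6 ± 9.84, Brca2 at 42.5 ± 3.83 and Fanci at 40.3 ± 10.5. These 6 genes lay above the median of all tested transcripts, which was 25.4. Fanca was at 21.8 ± 1.57, Fancm at 10.0 ± 1.2 and Palb2 at 9.87 ± 0.395. Between neighbours in this order the clones separated Mre11a from Fancd2, Fanci from Fanca, and Fanca from Fancm, whereas every other adjacent pair overlapped. The WT clones of the partners Fancd2 and Fanci, which act as a pair, did not overlap (50.1 to 58.8 against 28.2 to 47.1). Neither did those of Mre11a and Rad50, which form a complex (66.5 to 73.0 against 39.4 to 59.0). Palb2 lay under both of the genes whose proteins it connects, Brca1 and Brca2.

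**Figure D1:**
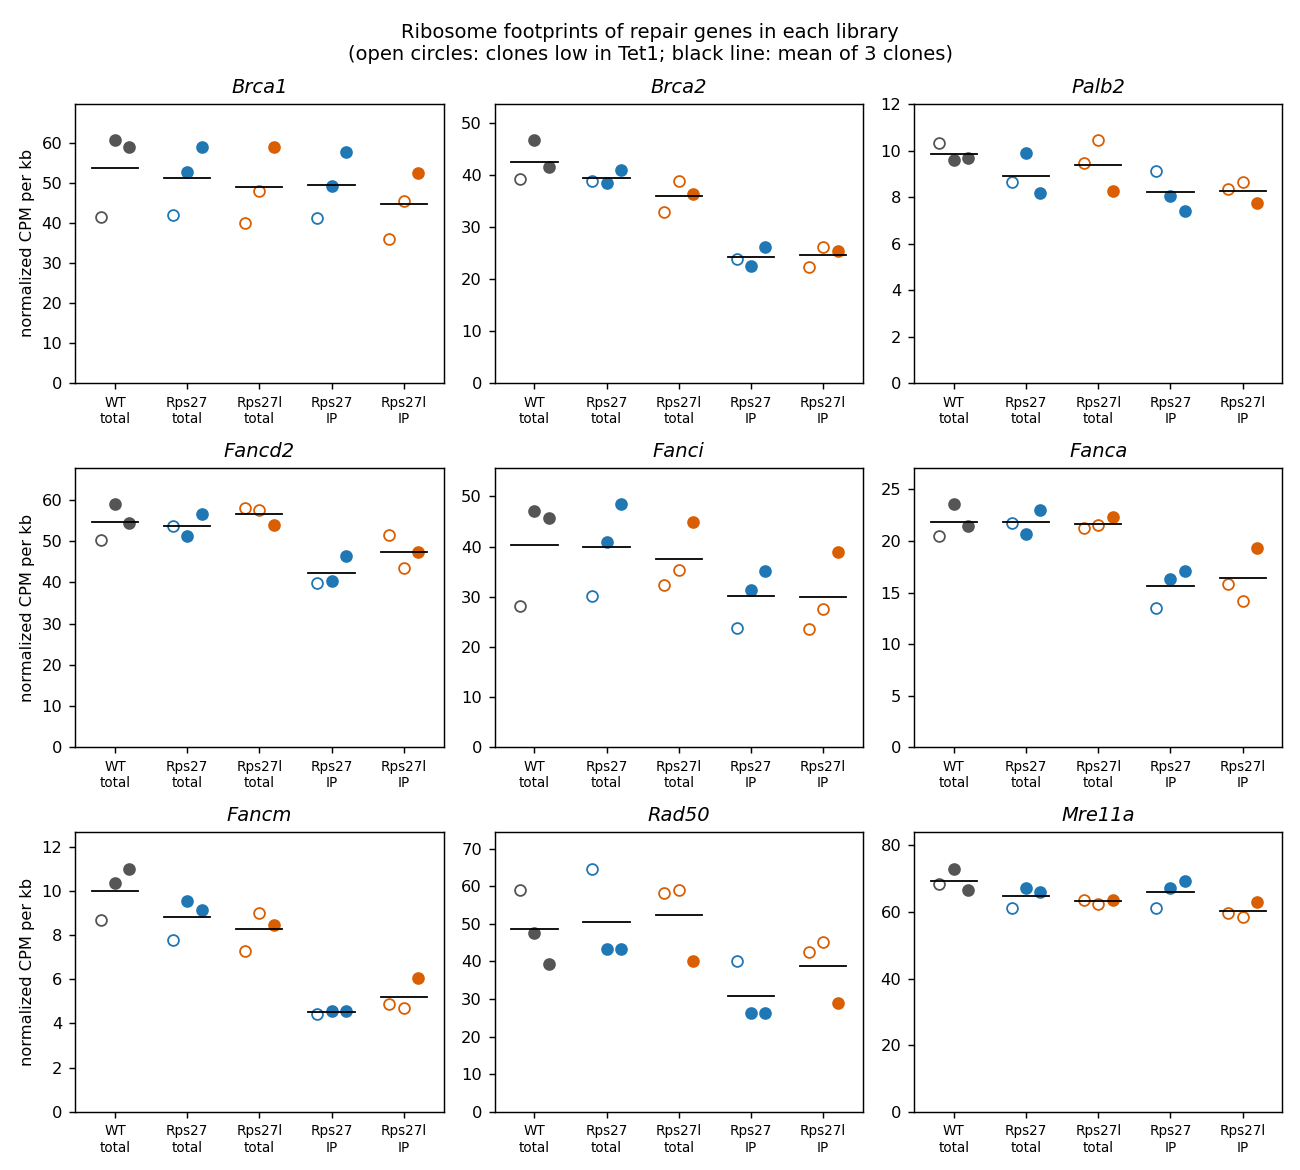
Normalized CPM per kb of counted CDS (y axis, from 0) for each of the 9 members in the 15 libraries (x axis, 3 clones per group). Open circles are the clones low in Tet1 and black lines the group means. Brca2 and Fancm fell in the IP RPFs of both lines, and the open circles of Brca1, Fanci and Rad50 stand apart from the filled ones.

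Most of the spread between clones of a line belonged to 3 members. Brca1 was at 41.5, 60.6 and 58.8 normalized CPM per kb in WT replicates 1 to 3, at 41.8, 52.8 and 58.9 in Rps27-FLAG and at 39.9, 47.9 and 58.9 in Rps27l-FLAG. Fanci was at 28.2, 47.1 and 45.7 in WT, at 30.2, 40.9 and 48.4 in Rps27-FLAG and at 32.4, 35.2 and 44.9 in Rps27l-FLAG. Rad50 was high where those were low, at 59.0, 47.6 and 39.4 in WT, at 64.7, 43.3 and 43.3 in Rps27-FLAG and at 58.3, 59.0 and 40.0 in Rps27l-FLAG. The low clones of Brca1 and Fanci and the high clones of Rad50 were those with little Tet1. Brca1 ranged from 39.9 to 47.9 in these 4 clones and from 52.8 to 60.6 in the other 5, Fanci from 28.2 to 35.2 against 40.9 to 48.4, and Rad50 from 58.3 to 64.7 against 39.4 to 47.6. The other 6 members overlapped between the sets, so 3 of 9 were apart where the share over all transcripts was 23.1%. Since the sets were defined from the data, no test was made of this separation. The libraries of a replicate number were pooled during library preparation, the first pool holds 3 of the 4 low clones, and its part in the separation was not tested. Over the 9 total libraries Brca1 and Fanci had a Pearson r of 0.97 and Rad50 and Brca1 one of -0.88, as a description of clones that share these sets.

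The total RPFs of the tagged lines were compared with WT to ask whether tagging itself changed footprints of the repair genes. Footprint counts reflect both the amount of an mRNA and how heavily it is translated, and in such bulk cultures fewer cells of a state and less RNA per cell cannot be told apart. No member passed the test (edgeR quasi-likelihood, adjusted p under 0.05 over all 10085 transcripts) in Rps27-FLAG against WT, in Rps27l-FLAG against WT or between the tagged lines, and neither did any other transcript (0% in each), nor with DESeq2 or with voom and limma. At an unadjusted p under 0.05 the counts were 294, 574 and 580 of all transcripts and 0, 2 and 0 of the members. In Rps27-FLAG against WT the log2 fold changes of the members ran from -0.19 for Fancm to 0.05 for Rad50, and no member had clones of the lines fully apart (8.52% of all transcripts did). With the library pool as a block, no member passed either, against 0.00992% of all transcripts in that comparison, 1.43% in Rps27l-FLAG against WT and 1.36% between the tagged lines.

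Brca2, which acts after resection, came nearest to a change in Rps27l-FLAG total RPFs. It was at 39.3, 46.7 and 41.6 normalized CPM per kb in the 3 WT clones and at 32.9, 39.0 and 36.3 in the 3 Rps27l-FLAG clones, which did not overlap. The log2 fold change was -0.24 (SE 0.079, edgeR adjusted p = 0.821), with -0.25, -0.26 and -0.19 within pools 1 to 3, and the adjusted p was 0.0767 with the pool as a block. In pool 2 the Rps27l-FLAG clone was low and the WT clone high in Tet1, so the pool did not pair like clones there. Fancm had a log2 fold change of -0.28 (SE 0.12, edgeR adjusted p = 0.821, or 0.125 with the pool as a block). Mre11a, at -0.13, was the other member whose clones were apart, so 2 of 9 members were apart against 9.65% of all transcripts. Between the tagged lines no member had clones apart, where 11.5% of all transcripts did.

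In Rps27-FLAG mESCs the IP RPFs, which come from ribosomes carrying Rps27-FLAG, held fewer footprints of Brca2, Fancm, Fanca and Fancd2 than the total RPFs, calls that were all lost when the trend on CDS length was removed (log2 fold changes then -0.22, -0.60, -0.20 and -0.06). Brca2 was at 38.8, 38.5 and 40.9 normalized CPM per kb in the total RPFs of replicates 1 to 3 and at 23.9, 22.5 and 26.2 in their IP RPFs. Fancm, the fork remodelling helicase, was at 7.80, 9.54 and 9.12 in the total RPFs and at 4.45, 4.59 and 4.56 in the IP RPFs. For both genes every IP library lay under every total library by a wide margin. The log2 fold change was -0.70 for Brca2 (SE 0.071, edgeR adjusted p = 0.00179) and -0.96 for Fancm (SE 0.10, edgeR adjusted p = 0.00232). Fanca, of the core complex, went from 21.8, 20.7 and 23.0 to 13.6, 16.3 and 17.1 (log2 fold change -0.48, SE 0.098, edgeR adjusted p = 0.0308). Fancd2, its ubiquitinated target, went from 53.6, 51.1 and 56.4 to 39.9, 40.4 and 46.3 (log2 fold change -0.35, SE 0.077, edgeR adjusted p = 0.0406). Thus 4 of 9 members were called lower where 5.34% of all transcripts were, and none was called higher where 0.327% were. Among tested transcripts within 10% of a member's CDS length, the share called lower ran from 3.8% for Mre11a to 50% for Brca2. It was 34.5% for Fancm, 19.8% for Fancd2 and 18.5% for Fanca. The log2 fold changes are relative to the other transcripts of a library. Each library was scaled by its own total times a normalization factor (TMM), set separately for IP and total RPFs.

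Rad50 had the same log2 fold change as Brca2 in Rps27-FLAG, but its clones differed more. It was at 64.7, 43.3 and 43.3 normalized CPM per kb in the total RPFs and at 40.1, 26.2 and 26.3 in the IP RPFs, and the log2 fold change of -0.70 (SE 0.21) had an edgeR adjusted p of 0.0987. Fanci was at -0.41 (SE 0.19, edgeR adjusted p = 0.255). Brca1 (-0.05), its partner Palb2 (-0.11) and Mre11a (0.02) stood near 0. The clones of IP and total RPFs were apart for 5 members, the 4 called ones and Rad50, where 28.3% of all transcripts were apart.

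**Figure D2:**
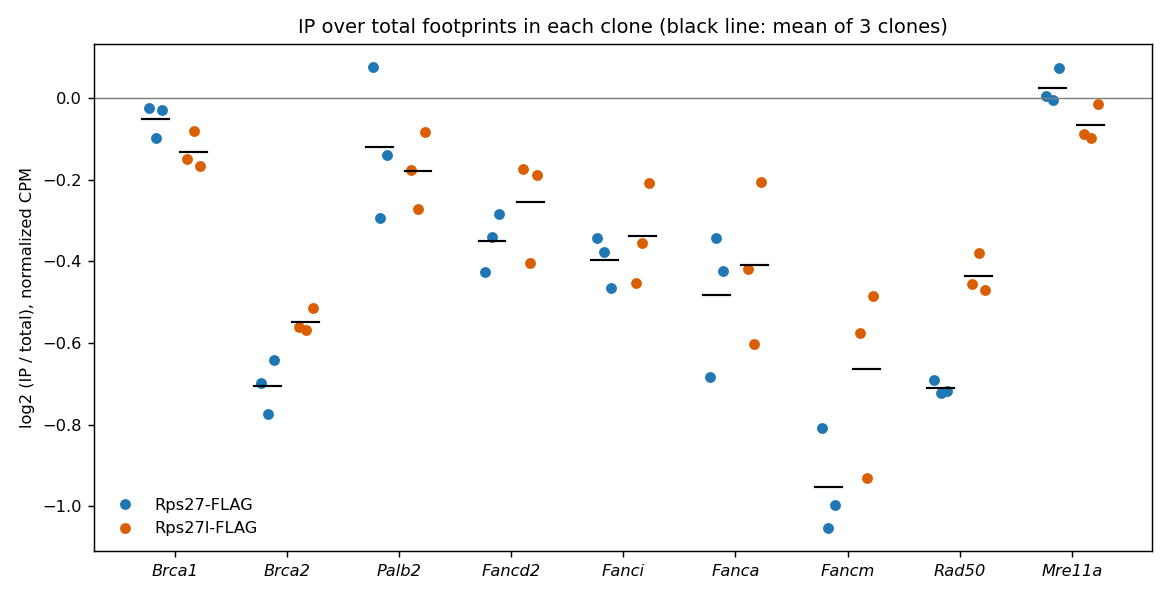
The log2 ratio of IP over total RPFs in each tagged clone (y axis) for the 9 members (x axis), with blue points for Rps27-FLAG, orange points for Rps27l-FLAG and black lines for the means of 3 clones. Rad50 and Brca2 are lower in all 3 Rps27-FLAG clones than in any Rps27l-FLAG clone, and Mre11a is slightly higher.

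Each tagged clone gave both an IP and a total library, so the ratio can also be taken clone by clone. For Rad50 in Rps27-FLAG it was -0.69, -0.72 and -0.72 on the log2 scale, nearly the same in the 3 clones although their levels differed. Brca2 gave -0.70, -0.77 and -0.64, and Fancm -0.81, -1.05 and -1.0. Fanci gave -0.34, -0.38 and -0.46 and Fancd2 -0.43, -0.34 and -0.28, so all 3 clones of each of these genes lay below 0. With the clone as a replicate block, 6 members were called lower (Brca2, Fancd2, Fanci, Fanca, Fancm and Rad50), where 22.9% of all transcripts were, and none higher, where 18.3% were. With each clone left out in turn, this blocked fit called the same 6 genes. Without the block, leaving out Rps27-FLAG replicate 2 or replicate 3 left 0 members and 0 of all transcripts called, and leaving out replicate 1, the clone low in Tet1, gave 6 members lower where 11.3% of all transcripts were. Fancd2 was no longer called when IP and total libraries were scaled together, which left 3 members, where 4.69% of all transcripts were lower.

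In Rps27l-FLAG mESCs the same 2 genes led. Brca2 was at 32.9, 39.0 and 36.3 normalized CPM per kb in the total RPFs and at 22.3, 26.3 and 25.5 in the IP RPFs, with no overlap (log2 fold change -0.55, SE 0.084, edgeR adjusted p = 0.0183). Fancm went from 7.30, 9.02 and 8.47 to 4.89, 4.72 and 6.04, again without overlap (log2 fold change -0.67, SE 0.13, edgeR adjusted p = 0.0323). The other members were not called: Rad50 was at -0.43, Fanca at -0.40, Fanci at -0.33, Fancd2 at -0.25, Palb2 at -0.19, Brca1 at -0.14 and Mre11a at -0.07, all below 0. In this line 2 of 9 members were called lower where 2.27% of all transcripts were, and none higher where 0.833% were. Among tested transcripts within 10% of a member's CDS length, the share called lower ran from 1.64% for Mre11a to 27.5% for Brca2. It was 20.2% for Fancm. The clones were apart for 4 members (Brca2, Fancm, Fanca and Fancd2) where 23.2% of all transcripts were apart.

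With the clone as a replicate block, 7 members were called lower in Rps27l-FLAG, all but Palb2 and Mre11a, where 19.0% of all transcripts were, and none higher, where 12% were. This fit kept the same 7 genes with each clone left out in turn. The fit without the block called 0 members and 0 of all transcripts without Rps27l-FLAG replicate 1 or replicate 2. Without replicate 3, the clone of this line high in Tet1, it called 4 members lower (Brca2, Fanca, Fancm and Rad50) where 2.39% of all transcripts were. DESeq2 called Brca2 alone, where 2.49% of all transcripts were lower, and gave Palb2 and Fancm no adjusted p. Over the members the median log2 fold change was -0.41 in Rps27-FLAG and -0.33 in Rps27l-FLAG, beside -0.01 and -0.03 over all tested transcripts.

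Long coding sequences were lower in the IP RPFs of both lines as a whole, and this moves with the members' values. Among the 168 tested transcripts within 10% of the CDS length of Fancm, the median log2 fold change was -0.39 in Rps27-FLAG, and 2 of them lay below Fancm. For Rad50 there were 407 such transcripts with a median of -0.25, and 15 lay below it. Both genes were thus near the bottom of their length class in this line. Fanca had 57 of 313 below it, Fanci 104 of 392, Brca2 13 of 40 and Fancd2 115 of 313, so these stood within the spread of transcripts of their size. Brca1 had 173 of 212 below it and Palb2 354 of 546. In Rps27l-FLAG, 9 of 168 transcripts lay below Fancm, 57 of 407 below Rad50 and 58 of 313 below Fanca. Brca2, the other member called in this line, had 12 of 40 below it. Fanci had 106 of 392, Fancd2 132 of 313, Palb2 281 of 546, Mre11a 524 of 974 and Brca1 154 of 212.

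**Figure D3:**
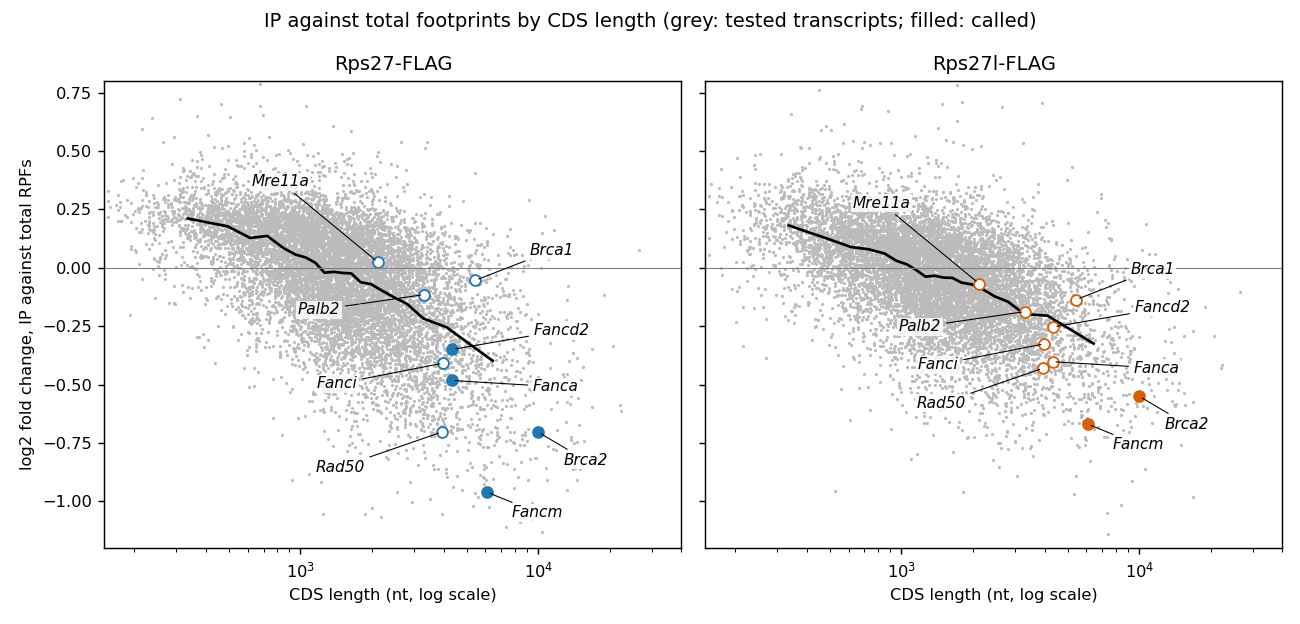
The log2 fold change of IP against total RPFs (y axis) by CDS length (x axis, log scale) in Rps27-FLAG (left) and Rps27l-FLAG (right). Grey dots are the tested transcripts with a CDS length (10084, of which 11 and 10 lie outside the axes), the black line their running median over length bins, filled circles members called lower and open circles the other members. Fancm, and in Rps27-FLAG also Rad50, lie far below the median of their length, and Brca1 above it.

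With the trend of log2 values on CDS length removed from each library, no member was called in either line, where 0.178% of all transcripts were called lower and 0.0892% higher in Rps27-FLAG and 0.0198% and 0.0595% in Rps27l-FLAG. The log2 fold change of Brca2 went from -0.70 to -0.22 in Rps27-FLAG and from -0.55 to -0.17 in Rps27l-FLAG. Fancm went to -0.60 (edgeR adjusted p = 0.0702) and -0.37 (0.337), and Rad50 to -0.44 (0.329) and -0.22 (0.761). When the clone was also a block, Brca2, Fanci, Fanca, Fancm and Rad50 were called lower in both lines, 5 of 9, where 13.0% of all transcripts were in Rps27-FLAG and 8.04% in Rps27l-FLAG. Brca1 was then called higher in both, at 0.29 (SE 0.033) and 0.14 (SE 0.034), and Mre11a in Rps27-FLAG at 0.13 (SE 0.041), where 18.4% and 14.7% of all transcripts were called higher. Fancd2 was not called in that fit, at -0.07 and -0.02.

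The difference in IP effect between the lines was tested to ask whether Rps27- and Rps27l-ribosomes held the repair transcripts unequally. Rad50 was the 1 member called, with an IP effect higher in Rps27l-FLAG by 0.27 on the log2 scale (SE 0.054, edgeR adjusted p = 5.17e-04, clone as a block, past the fold limit of 0.25). Its clone ratios were -0.46, -0.38 and -0.47 in Rps27l-FLAG against -0.69, -0.72 and -0.72 in Rps27-FLAG, with no overlap. Within library pools 1 to 3 the difference was 0.24, 0.34 and 0.25, with a sign that follows from the lack of overlap. So 1 of 9 members was called higher where 0.466% of all transcripts were, and none lower where 0.0992% were. The clones low in Tet1 were found in both lines, and Rad50 stood at -0.69 against -0.46 and -0.38 among them and at -0.72 and -0.72 against -0.47 among the others. With the length trend removed Rad50 was at 0.23 (SE 0.054, edgeR adjusted p = 0.00795), under the fold limit, and without Rps27l-FLAG replicate 2 at 0.25 (adjusted p = 0.0133), just under it. DESeq2 gave 0.28 with an adjusted p of 0.0987. Without the clones low in Tet1 the value was 0.25 with 1 Rps27l-FLAG clone left, and without those high in Tet1 it was 0.27 with 1 Rps27-FLAG clone left, so neither fit measured the spread of that line.

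**Figure D4:**
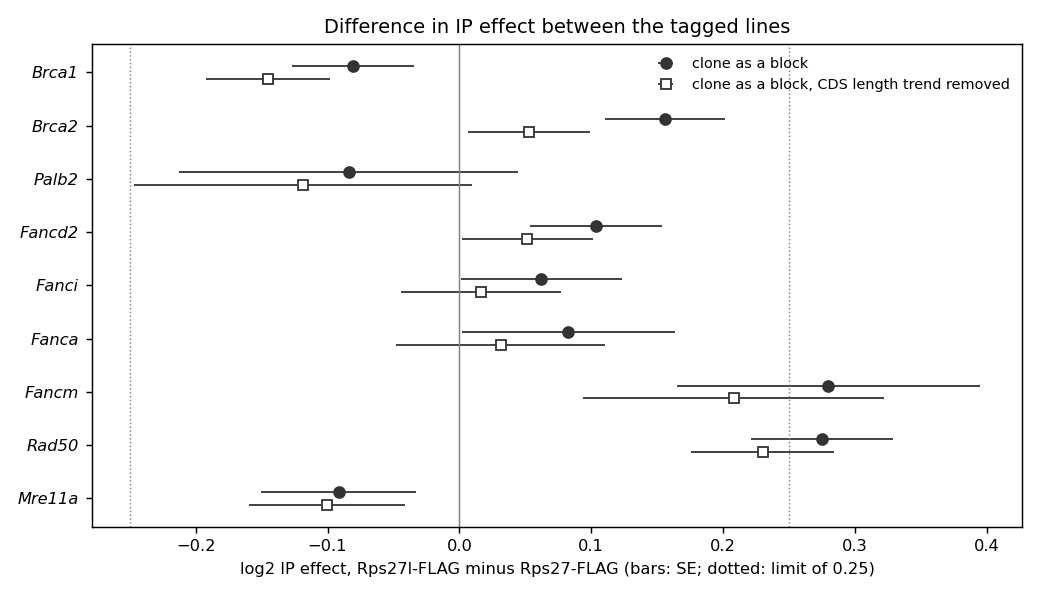
The log2 IP effect in Rps27l-FLAG minus that in Rps27-FLAG (x axis) for the 9 members (y axis). Circles are the fit with the clone as a block, squares the same fit with the CDS length trend removed, bars the SE and dotted lines the fold limit of 0.25. Rad50 at 0.27 and Fancm at 0.28 are the highest, and the bar of Fancm is the wider.

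Fancm had an equally large difference of 0.28, but with an SE of 0.12 on its low counts the edgeR adjusted p was 0.261. Brca2 was at 0.16 (SE 0.046, edgeR adjusted p = 0.0543), and its Rps27l-FLAG ratios of -0.56, -0.57 and -0.51 all lay above the Rps27-FLAG ratios. Mre11a, the partner of Rad50, had clones apart in the opposite direction, at -0.09, -0.10 and -0.02 in Rps27l-FLAG against 0.00, 0.00 and 0.07 in Rps27-FLAG (difference -0.09, SE 0.059, edgeR adjusted p = 0.591). Clones were apart for these 3 members, Rad50, Brca2 and Mre11a, where 16.2% of all transcripts were apart. Fancd2 at 0.10, Fanca at 0.08, Fanci at 0.06, Brca1 at -0.08 and Palb2 at -0.08 completed the set. With the length trend removed Brca2 went to 0.05 and Brca1 to -0.15 (edgeR adjusted p = 0.0971).

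The other genes of these pathways were taken from a list of 61, all of them tested. In Rps27-FLAG 6 were called lower in the IP RPFs, where 5.34% of all transcripts were, and none higher, and none of these calls was kept with the length trend removed. These were Rev3l, the catalytic subunit of translesion polymerase zeta (-1.08, SE 0.11), Fancb of the core complex (-0.72, SE 0.17), the Brca1-bound helicase Brip1 (-0.56, SE 0.11), the topoisomerase Top3a (-0.49, SE 0.084), the nuclease-helicase Dna2 (-0.43, SE 0.068) and the RecQ helicase Blm (-0.31, SE 0.054), with edgeR adjusted p from 0.00218 for Rev3l to 0.0491 for Fancb. In Rps27l-FLAG Rev3l alone was called (-0.77, SE 0.12, edgeR adjusted p = 0.0185), 1 of 61 where 2.27% of all transcripts were called lower, and it too was lost without replicate 1 or replicate 2. Fancb was not called by voom or DESeq2. Leaving out Rps27-FLAG replicate 2 or replicate 3 left none of the list called. Leaving out replicate 1 gave 10 lower and 2 higher, where 11.3% and 6.71% of all transcripts were. With the clone as a replicate block 18 list genes were lower and 4 higher in Rps27-FLAG, and 14 lower and 4 higher in Rps27l-FLAG, beside the shares of all transcripts given above for that fit. As among the members, the called genes were long, with 9369 nt for Rev3l and 2562 nt for Fancb, the shortest of them, while the median CDS of the list was 1581 nt. Nbn, the third subunit of the Mre11a-Rad50 complex, was at 0.11 in Rps27-FLAG and 0.09 in Rps27l-FLAG, not called in either. The list's median was -0.07 in Rps27-FLAG and -0.06 in Rps27l-FLAG, nearer to that of all transcripts than the members' was.

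**Figure D5:**
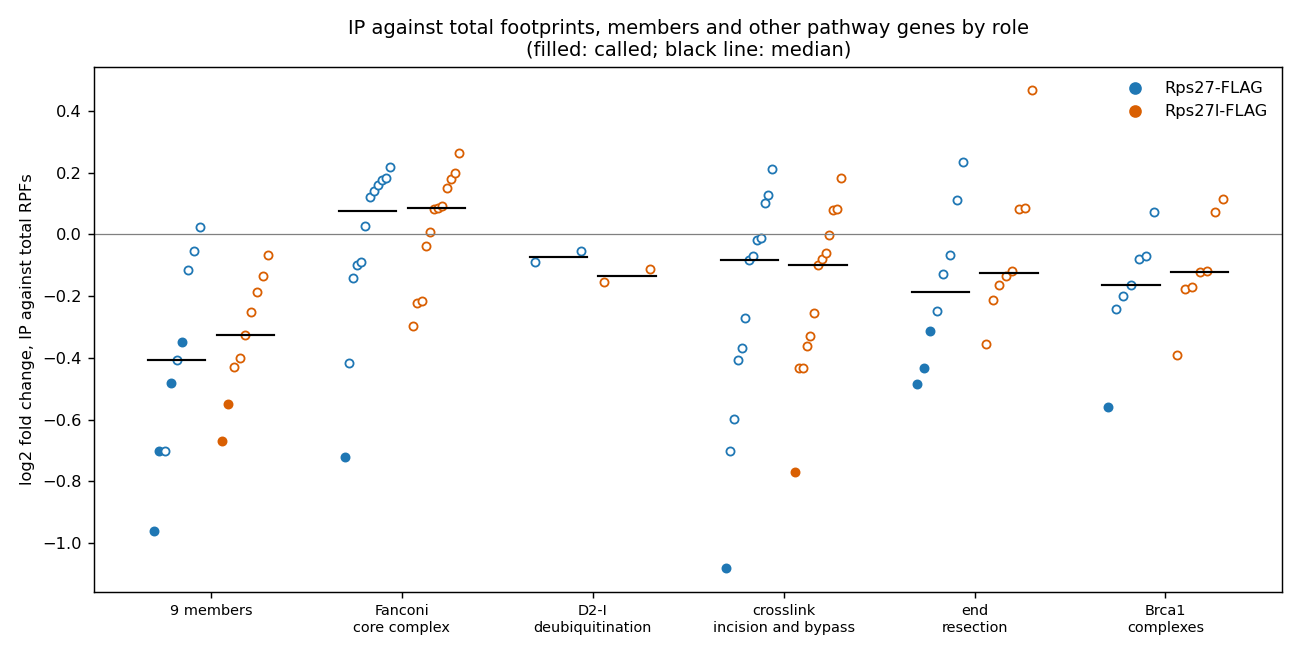
The log2 fold change of IP against total RPFs (y axis) for the 9 members and for other genes of the pathways in 5 groups by role (x axis), with blue for Rps27-FLAG, orange for Rps27l-FLAG, filled circles for genes called lower and black lines for medians. The members have the lowest medians (-0.41 and -0.33), and the core complex has the highest.

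By role, the 8 resection genes held 3 of the calls in Rps27-FLAG (Dna2, Blm and Top3a) and had a median of -0.19, and the 7 genes of Brca1 complexes held 1 with a median of -0.16. The 13 incision and bypass genes held 1 with a median of -0.08, and the 12 core complex genes held 1 with a median of 0.07. No list gene passed both thresholds for the difference between the lines in edgeR, voom or DESeq2. DESeq2 could not decide this for most transcripts, since 8016 of 10085 had no adjusted p. In edgeR 9 of 61 list genes had an unadjusted p under 0.05, as did 1217 of all 10085 transcripts. Blm passed the adjusted p (0.00664) at a difference of 0.20, under the fold limit. The highest values were Fancb at 0.52, Faap100 at 0.51 and Fancg at 0.43, and the lowest Fance at -0.41, Mnd1 at -0.33 and Faap24 at -0.22, so that core complex genes stood at both ends, with adjusted p between 0.103 and 0.836 (edgeR). These genes had few footprints. Their means in WT total RPFs ran from 6.99 CPM for Faap24 to 17.8 CPM for Faap100, against 32.1 CPM for Palb2, the lowest member. The list spanned a wider range of WT density than the members, from 545 normalized CPM per kb for Swi5 to 0.797 for the end-joining polymerase Polq.

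Across the 15 libraries each member was correlated with the mean profile of the 9 members, which includes that member itself. Fancm (Pearson r of 0.98), Brca2 (0.98) and Fanca (0.93) followed this mean most closely, and Mre11a (0.47) and Brca1 (0.48) least. The 5 tested transcripts outside both lists with the most similar profile were Zfp106 (0.98), Pole (0.98), Sgo2a (0.98), Cep295 (0.98) and Atad2 (0.97). These are descriptions over libraries that share clones and library pools. All 5 have long coding sequences as well, between 3495 nt for Sgo2a and 7143 nt for Cep295.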

How the data were processed

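The authors deposited raw footprint counts per transcript: reads were trimmed with cutadapt 2.4, aligned with Bowtie2 2.3.4.3 to GRCm38 (mm10) transcripts, deduplicated by UMI-tools 1.0.1, and A sites were counted without the first 15 and last 5 codons of each CDS. Members and lists were chosen with earlier results of these data known. Names and CDS lengths came from GENCODE M21 (21723 of 21727 transcripts matched), which may differ from the authors' GENCODE release. Transcripts over 2 CPM in at least 14 of 15 libraries were tested, with 13 mitochondrial transcripts left out. TMM factors were set separately for IP and total RPFs. Tests were edgeR 4.0.16 quasi-likelihood fits (R 4.3.3) with Benjamini-Hochberg adjustment at 0.05, without a block except for the difference in IP effect, which also required an absolute log2 fold change over 0.25. Clone names in the labels pair each IP with a total library (correlation of deviations 0.47 to 0.79 over 6 pairs). Libraries sharing a replicate number were pooled during preparation (a library pool, with -0.16 to 0.71 over 9 pairs of its total libraries). Clone ratios used 0.5 added counts. The scripts were tested on simulated data. Alternatives were voom with limma 3.58.1, DESeq2 1.42.0, other scalings and filters, each replicate left out, the block, and a loess CDS length correction (span 0.5). Named genes were all members, called list genes, the list's 3 highest and 3 lowest differences, and its extremes of WT level. One group of the list is not reported by role here.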

Additional observations from a re-analysis of the deposited data

Results flagged for a closer look

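The IP effect of Rad50, the ATPase of the resection complex, differed between the tagged lines by a test of the difference itself. It was 0.27 higher in Rps27l-FLAG on the log2 scale (edgeR adjusted p = 5.17e-04). No other member passed that test. The IP background of the 2 lines was not measured, and its part in the difference was not tested. The call was lost in DESeq2, with the length trend removed, with no replicate block and without Rps27l-FLAG replicate 2. By size the difference ranked 571 from the highest of the 10085 tested transcripts. Among those within 10% of the CDS length of Rad50 the median difference was 0.048, and 377 of 407 lay below Rad50. Outliers among replicates were not looked for, since every group held 3 clones.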

How the results depend on the processing

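Of 868 values recomputed for single members under the alternatives, 760 kept their sign and call, 24 gained a call, 27 lost one and 59 changed sign, 2 of them also gaining a call. Of these 59, 51 had a main value within 1 SE of 0 and no call in either fit, and the other 8 are given here. No alternative gave a member called between total RPFs. The alternatives on Tet1 and those leaving out clones in the blocked fit were chosen after seeing the data.

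In Rps27-FLAG IP against total RPFs, the 4 members and 6 list genes called became 0 and 0 with the CDS length trend removed. Counting both directions, they became 6 and 22 with the clone as a replicate block (22 being 18 lower and 4 higher), and 7 (5 lower) and 12 (10 lower) with block and length correction. Leaving out 1 replicate gave 0 to 6 members and 0 to 12 list genes, and leaving out the clones low in Tet1 gave 6 and 12. In that last fit 11.3% of all transcripts were lower and 6.71% higher. In Rps27l-FLAG, the 2 members and 1 list gene became 0 and 0 with the length trend removed, 7 and 18 (14 lower) with the replicate block, 6 (5 lower) and 7 (3 lower) with both, 1 and 2 in DESeq2, and 4 and 2 without the clone high in Tet1. Leaving out 1 replicate gave 0 to 4 members and 0 to 2 list genes. Of all transcripts, 2.49% were lower and 2.14% higher in DESeq2, and 2.39% and 0.773% without the clone high in Tet1. The fit without the clones low in Tet1 could not be made there, since 1 clone was left.

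The 1 member called for the difference in IP effect, Rad50, became 0 in DESeq2, with the length trend removed, with no replicate block, and without the clones low or those high in Tet1, where 1 line had 1 clone left. Leaving out 1 replicate gave 0 to 1. Without the fold limit 1 list gene was called, where 1.35% of all transcripts were higher and 0.139% lower. Without the clones low in Tet1, which leaves 1 Rps27l-FLAG clone, assumed to vary like the other groups, 1 list gene (Fancl) was lower in Rps27l-FLAG total RPFs against WT, where 2.59% of all transcripts were, and 1 against Rps27-FLAG, where 1.59% were.

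With the length trend removed, the mean clone ratio in Rps27-FLAG and Rps27l-FLAG became 0.29 and 0.14 for Brca1, -0.22 and -0.17 for Brca2, 0.10 and 0.0057 for Palb2, -0.065 and -0.022 for Fancd2, and -0.13 and -0.12 for Fanci. It became -0.20 and -0.18 for Fanca, -0.59 and -0.37 for Fancm, -0.45 and -0.22 for Rad50, and 0.14 and 0.037 for Mre11a. Of the 8 sign changes, 4 were those of Brca1 with block and length correction (0.29 and 0.14) and of Mre11a in Rps27l-FLAG (0.037 with the length correction, 0.033 with the block too). The other 4 were in the difference in IP effect, which with 1 replicate left out ran from -0.030 to 0.17 for Fanca (below 0 for 2 of the replicates left out) and from -0.0082 to 0.12 for Fanci, and Fanci was at -0.060 without the clones high in Tet1. The cause of these changes was not tested. With 3 clones a group, and as few as 99 counts for Palb2 and 119 for Fancm, small changes in these 2 genes were not detectable.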
